A study of Mus musculus with 62 samples.

Results

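HT-22 is an immortalised mouse cell line derived from hippocampus and is often used as a neuronal model. Long-RNA libraries of HT-22 cells given an anti-Hsf1 LNA (a locked nucleic acid, a modified antisense oligonucleotide) and then amyloid beta peptide were compared with those given the same LNA and then the reverse peptide. The members were chosen by their labels: 3 libraries with amyloid beta (Aβ42) and 3 with the peptide of inverted sequence, 6 of the 62 libraries of the series. Per the labels' protocols, the anti-Hsf1 LNA was given at 150 nM for 24 h, each peptide followed at 30 uM in DMSO, and the cells were at passage 4. All 6 libraries carry the anti-Hsf1 LNA, so the comparison shows the peptide difference in cells given that LNA. The same peptides after a scramble LNA, labelled at 50 uM and thus not at the anti-Hsf1 concentration, gave 4 libraries each and served as the comparison set. The rest of the series is short-RNA libraries of the same cells and hippocampi of APP NL-G-F and C57BL/6J mice. The series' design text calls the cell replicates biological, which here are cultures of 1 line.

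Hsf1 is the transcription factor that binds heat shock elements and induces chaperone genes when proteins misfold. In its inactive state it is held by chaperones such as Hsp90 and Hsp70, and it is released when those bind unfolded protein. Amyloid beta is cut from App by the beta and gamma secretases and accumulates in plaques in Alzheimer's disease. The study's title concerns the processing of B2 RNA, a noncoding RNA made by RNA polymerase III from a short interspersed repeat and known to repress RNA polymerase II in heat shock.

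Abundance is given as TPM (a read density per transcript length, scaled so that each library sums to a fixed total). "Scaled TPM" is TPM divided by the library's median of ratios over genes, which sets the middle gene of every library to the same level. Differences are Aβ42 minus reverse peptide on the log2(scaled TPM + 1) scale, which understates the difference of low genes. They come from limma with Benjamini-Hochberg adjustment over the 17291 genes whose mean TPM reached 1, in 1 fit of the 14 HT-22 long-RNA libraries. A gene passed at an adjusted p below 0.05.

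The most abundant RNA by TPM in these 6 libraries was Gm23935, a 57-base gene annotated as a miRNA on chromosome 16, and with its close copies it differed widely between the peptide groups. The GRCm38 annotation (GENCODE M21) holds 5 other genes that are identical to it or differ by 1 to 4 edits. Their transcript sequences are shown because reads from them can hardly be told apart, and capitals mark bases that differ from Gm23935.
Gm23935 (chr16:11144125-11144181, plus strand): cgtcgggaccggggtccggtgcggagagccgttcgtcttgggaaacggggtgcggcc
Gm24245 (chr4:139338304-139338360, plus strand): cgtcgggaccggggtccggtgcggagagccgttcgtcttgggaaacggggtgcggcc
Gm24270 (chr9:56223715-56223771, minus strand): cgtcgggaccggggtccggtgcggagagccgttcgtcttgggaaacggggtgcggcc
Gm24187 (chr13:9834469-9834525, minus strand): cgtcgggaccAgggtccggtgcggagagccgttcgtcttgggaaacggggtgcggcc
Gm25911 (chr1:167340369-167340424, minus strand): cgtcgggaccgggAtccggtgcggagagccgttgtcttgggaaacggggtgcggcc
Gm23388 (chr8:85112012-85112068, minus strand): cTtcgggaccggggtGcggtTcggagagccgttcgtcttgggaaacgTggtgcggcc
Gm24245 and Gm24270 are identical to Gm23935. Gm25911 also lacks a base, which capitals cannot show, and Gm23388 did not reach the mean TPM of 1.

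3 other short genes annotated as miRNA stood among the most different and have mature sequences in RefSeq (GRCm38.p6). They are printed with the seed, bases 2 to 8, in capitals.
mmu-miR-6236: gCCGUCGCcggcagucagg
mmu-miR-3058-5p: uCAGCCACggcuuaccuggaaga
mmu-miR-3058-3p: uUCCUGUCagccgugggugcc
mmu-miR-3084-5p: gUUGAAGGuuaauuagcagagu
mmu-miR-3084-3p: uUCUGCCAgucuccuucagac
No 2 of these seeds are alike. The values below are of the annotated genes in fragmented long RNA, not of the mature miRNAs.

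Library depth, read from the ratio of coverage to FPKM, was even among the 6 libraries, at 0.836 to 1.15 in relative units. Read numbers were not analysed here. The cells were checked against marker lists. Of 12 neuron markers, 10 stayed below 1 scaled TPM in all 6 libraries, Rbfox3, Map2, Snap25 and Syt1 among them, and the list summed to 7.96 to 9.72. Of 10 fibroblast and mesenchymal markers, 8 reached 1 scaled TPM, led by S100a4, Col1a2, Col1a1 and Col3a1, and the list summed to 4245 to 4988 with Aβ42 and 4155 to 4713 with the reverse peptide. Vim was the neural progenitor marker that reached 1 scaled TPM, and the other 6 of that list did not. Most defining markers of mature neurons were thus near 0 in these cultures.

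Hsf1, the gene the LNA targets, was at nearly the same level in both peptide groups. Scaled TPM was 43.1, 51.2 and 46.5 with Aβ42 and 52.4, 42.9 and 48.7 with the reverse peptide, so the groups overlapped. The log2 difference was -0.03 (SE 0.154, 95% interval -0.36 to 0.30), and the two-sided exact permutation test gave p = 0.80, where 3 against 3 cannot go below 0.10. After scramble LNA, Hsf1 stood at 61.3 ± 9.26 with Aβ42 and 53.5 ± 7.85 with the reverse peptide (SD, n = 4 each). Each anti-Hsf1 library lay below the scramble mean of its own peptide. With the peptides pooled, the ranges of the anti-Hsf1 libraries (42.9 to 52.4) and of the scramble libraries (42.9 to 70.9) overlapped. The difference in Hsf1 RNA between the LNA groups was not tested. The effect of the LNA on Hsf1 protein was not measured here. Hsf2, a second heat shock factor, had a difference of -0.12 (SE 0.138), and Hsf4 one of 0.35 (SE 0.207), neither of which passed.

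**Figure D1:**
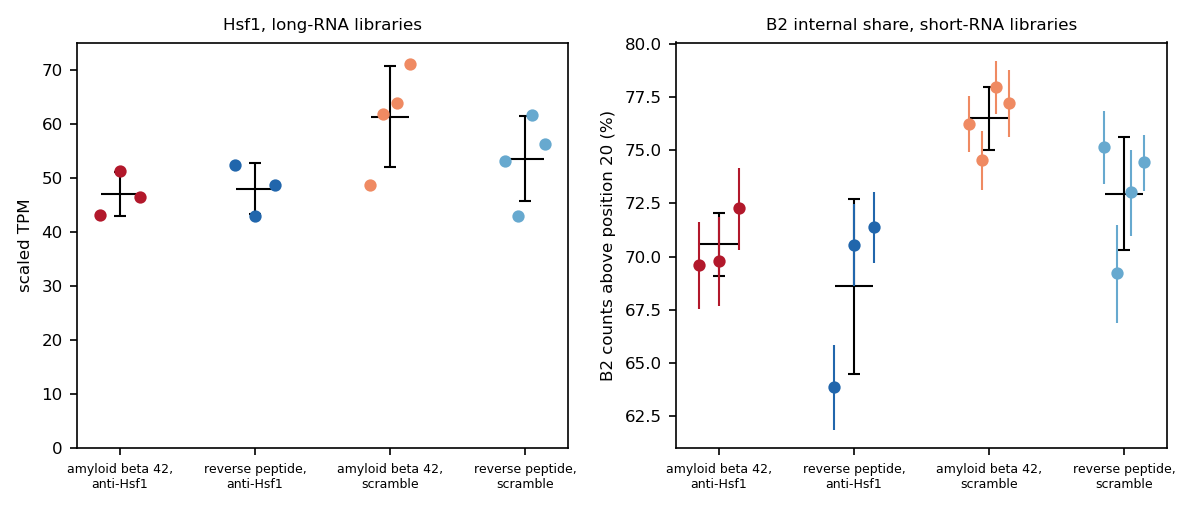
Hsf1 scaled TPM in each long-RNA library (left) and the share of B2 counts above position 20 in each short-RNA library, in percent (right), for the 4 groups. Points are libraries, black bars are the mean ± SD, and coloured lines on the right are 95% Wilson intervals. The anti-Hsf1 groups overlap in both panels.

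The composition of the libraries differed between the peptides. Gm23935 held 27.8%, 15.5% and 44.3% of all TPM in the Aβ42 libraries and 11.5%, 11.1% and 10.0% in the reverse peptide libraries. Every Aβ42 library was above every reverse peptide library, and the 3 Aβ42 libraries differed widely among themselves (29.2% ± 14.5 against 10.8% ± 0.739, SD, n = 3 each). In the scramble libraries the share was 9.37% ± 3.25 with Aβ42 and 9.75% ± 1.52 with the reverse peptide (SD, n = 4 each). Since TPM divides by length, a 57-base gene weighs heavily in it: weighted by gene length, Gm23935 made up 0.806% ± 0.486 of the Aβ42 libraries and 0.203% ± 0.0072 of the reverse peptide libraries.

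The protein-coding share of TPM, mitochondrial mRNAs included, was correspondingly lower with Aβ42. It was 32.1%, 42.1% and 30.1% with Aβ42 and 52.1%, 50.9% and 48.7% with the reverse peptide, without overlap. Weighted by gene length, the gap was smaller: 72.7%, 78.0% and 80.1% with Aβ42 against 83.5%, 82.9% and 81.7%, also without overlap. The difference of -15.8 percentage points in the share of TPM gave p = 0.10 in the two-sided exact permutation test, the smallest that 3 against 3 allows. With Gm23935 left out of the total, it was -7.35 percentage points, also at an exact permutation p of 0.10. On TPM as deposited, this shift lowered the median gene by 0.52 on the log2 scale, and limma called 4190 genes lower (24.2% of those tested) and 7 higher (0.0405%). After median of ratios scaling the median difference was -0.00 over all genes and 0.02 over coding genes. Levels and differences of genes below are on that scale, so higher means higher relative to the library's median gene.

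**Figure D2:**
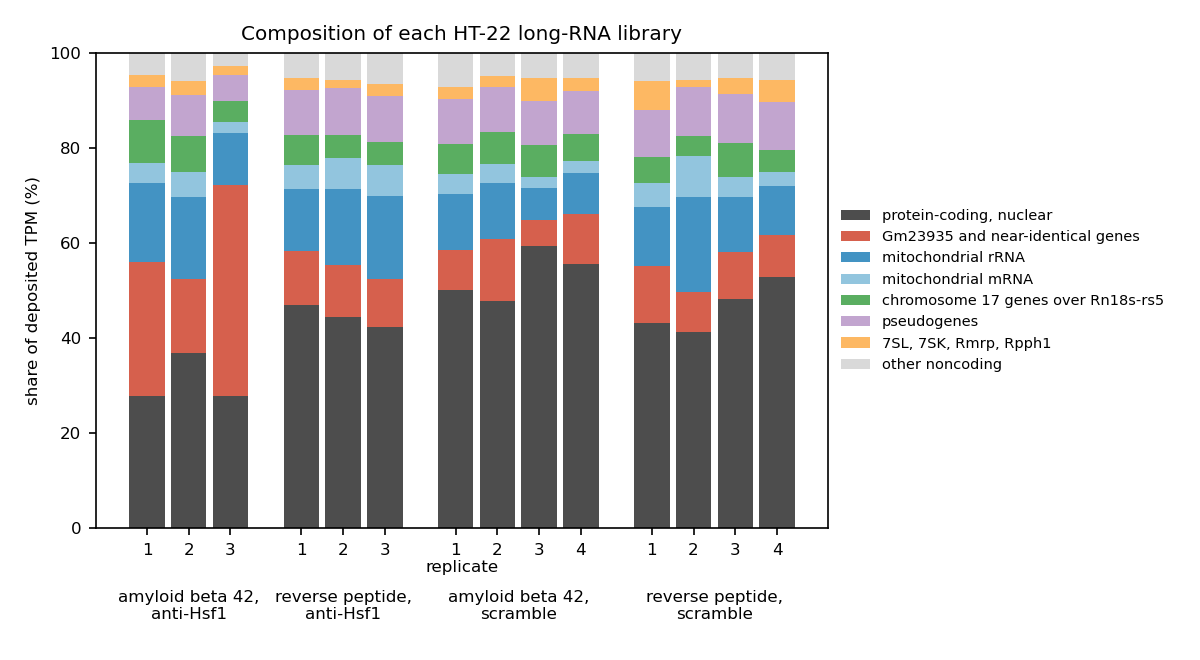
Share of deposited TPM, in percent, held by 8 classes of genes in each of the 14 HT-22 long-RNA libraries, grouped by peptide and LNA. The red part, Gm23935 and its near-identical copies, is largest in the 3 Aβ42 libraries with anti-Hsf1 LNA, at 15.6% to 44.6% of TPM, against 10.1% to 11.5% with the reverse peptide.

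On scaled TPM, no gene passed: limma called 0 of 17291 genes (0% called), the smallest adjusted p was 0.223, and 794 genes (4.59%) had an unadjusted p below 0.05. The same peptides after scramble LNA gave 0 called and 866 at an unadjusted p below 0.05 (5.01%). The 95% interval of the difference lay within ±1 log2 unit for 12314 genes (71.2%), and for 9600 of 11098 coding genes. For low genes the log2(scaled TPM + 1) scale itself narrows the interval, so this bound says less about them. For 1503 genes (8.69%) all 3 Aβ42 libraries lay above all 3 reverse peptide libraries, and for 1665 (9.63%) all lay below. When the fit was restricted to the 6 anti-Hsf1 libraries, which drops the spread of the scramble groups, still 0 genes of 16867 passed (smallest adjusted p 0.108), with 952 higher (5.64%) and 913 lower (5.41%) at an unadjusted p below 0.05. The scramble groups held 3 libraries that stood apart, Aβ42 replicates 3 and 4 and reverse peptide replicate 4, whose immediate-early genes summed to 2378, 2667 and 2651 scaled TPM against 438 to 582 in the other 5. Without these 3, an exclusion chosen after seeing the data, 4 genes passed, all higher with Aβ42.

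**Figure D3:**
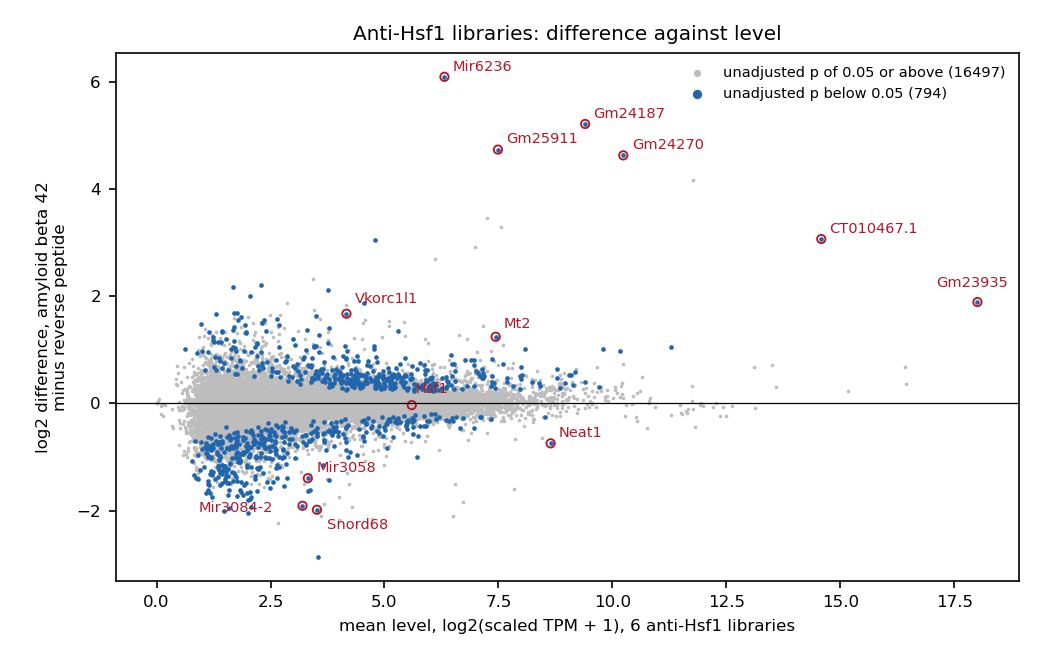
Log2 difference (Aβ42 minus reverse peptide, anti-Hsf1 libraries) of each of 17291 genes against its mean level in the 6 libraries; blue points have an unadjusted p below 0.05. Gm23935, 3 of its copies, Mir6236 and CT010467.1 lie 1.89 to 6.10 above 0, while the bulk of abundant genes lies close to 0.

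The near-identical genes printed above had differences of 1.89 to 5.21; they were chosen for naming after their values were seen, apart from Gm23935. Gm23935 itself stood at 432560, 179920 and 668900 scaled TPM with Aβ42 and at 100300, 103730 and 97868 with the reverse peptide, a difference of 1.89 (SE 0.427, adjusted p = 0.74 in limma). Under quantile normalisation, which gives every library the same distribution, the difference was 0.00. That method gives the most abundant gene of each library the same value, so this 0.00 was fixed in advance and no conclusion is drawn from it. Gm24187, 1 edit away, was at 1977, 595 and 1382 against 21.2, 23.0 and 58.8 scaled TPM, a difference of 5.21 (SE 0.983, adjusted p = 0.400). Gm24270 differed by 4.63 (SE 0.838), Gm25911 by 4.74 (SE 0.913) and Gm24245 by 3.04 (SE 0.919), each without overlap. Without the 3 scramble libraries that stood apart, Gm24187 (adjusted p = 0.0129), Gm24270 (0.0184) and Gm25911 (0.037) passed in limma, and so did the coding gene Vkorc1l1 (0.037). That exclusion was chosen after seeing the data. By sequence, reads of the copies can hardly be told apart, so the copies do not count as separate results. Their levels were unlike even so. With Aβ42, the identical Gm24270 was at 3053, 935 and 2995 scaled TPM and Gm24245 at 24.1, 14.5 and 110, far below Gm23935. How reads were assigned among the copies was not examined. After scramble LNA the differences of these copies had the opposite sign, at -1.71 for Gm24187, -1.56 for Gm24270 and -2.29 for Gm25911, and the interaction (the peptide difference under anti-Hsf1 minus that under scramble) was 6.92, 6.18 and 7.03 with adjusted p of 0.423, 0.358 and 0.358. Without the 3 scramble libraries that stood apart, the interactions also passed, at 6.86, 5.81 and 7.05 with adjusted p in limma of 0.0416, 0.0459 and 0.0416.

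CT010467.1, a minus-strand gene annotated as ribosomal RNA on chromosome 17 (39846353 to 39848827) that overlaps the RefSeq ribosomal RNA gene Rn18s-rs5, was also named after its values were seen. It stood at 90432, 34693 and 10527 scaled TPM with Aβ42 and at 4032, 3214 and 4318 with the reverse peptide, so no library overlapped and the Aβ42 libraries spanned a wide range. The difference was 3.07 (SE 0.545, adjusted p = 0.393). Without Aβ42 replicate 3, the lowest of that group, it was 3.87 and passed (adjusted p = 0.00297 in limma), and so did its interaction, at 3.89 (0.0356). Leaving out the lowest library of the higher group favours both passes, so no conclusion is drawn from them. Gm42418, a plus-strand gene over the same bases, differed by 0.31 (SE 0.171), and its neighbour Gm26917 by 0.24 (SE 0.201). The library kit does not mark strand, so reads of the overlapping genes cannot be told apart. The share of deposited TPM of this locus was 9.09%, 7.51% and 4.39% with Aβ42 and 6.18%, 4.75% and 4.84% with the reverse peptide, with overlap. Weighted by gene length, it was 11.6%, 8.04% and 6.55% against 5.69%, 4.61% and 4.79%, without overlap. Mitochondrial ribosomal RNA was at 14.9% ± 3.57 and 15.5% ± 2.39 of deposited TPM, and weighted by length at 8.53% ± 1.302 and 6.60% ± 1.19 (SD, n = 3 each), with overlap on both. On scaled TPM, mt-Rnr2 was at 115630, 93336 and 89790 against 64915, 81615 and 86392, without overlap (difference 0.36, SE 0.238, not passed; under quantile normalisation -0.28), and mt-Rnr1 had overlapping groups (0.68, SE 0.451). How far ribosomal RNA left in the libraries takes part in the differences of short genes was not tested.

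Among named genes of at least 5 TPM with groups that did not overlap, those of smallest p on the higher side included Mir6236, Apba3, Vkorc1l1 and Mt2; none passed. Mir6236 was at 320, 79.8 and 68.99 scaled TPM with Aβ42 and at 0, 0.548 and 2.67 with the reverse peptide, a difference of 6.10 (SE 0.97, adjusted p = 0.223 in limma), and 6 of the 8 scramble libraries were also below 1. It reached the limit of 5 TPM only through the Aβ42 libraries, the group where it is high. Vkorc1l1, a vitamin K epoxide reductase, was at 29.7, 29.3 and 20.3 against 8.18, 6.90 and 7.40 scaled TPM, a difference of 1.67 (SE 0.356, adjusted p = 0.615), and after scramble LNA of 0.16. The scramble libraries varied, at 8.43, 7.09, 18.8 and 22.5 with Aβ42 and 14.2, 8.67, 13.9 and 9.35 with the reverse peptide. Mt2, a metallothionein that binds zinc and copper, was at 277, 254 and 199 against 87.7, 105 and 112 scaled TPM, a difference of 1.25 (SE 0.28, adjusted p = 0.740), and after scramble LNA of -0.00. There Mt2 was at 124, 218, 79.4 and 97.6 with Aβ42 and 139, 125, 113 and 107 with the reverse peptide. In each of these 3 genes the anti-Hsf1 groups did not overlap, and with array weights all 3 passed in limma (adjusted p of 0.0127, 0.0148 and 0.0284), as did Apba3 (0.0444).

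Apba3, an adaptor of the X11 family whose members bind the tail of App, was at 38.1, 40.1 and 42.5 scaled TPM with Aβ42 and 31.7, 22.2 and 21.8 with the reverse peptide, a difference of 0.67 (SE 0.131, adjusted p = 0.40). The other genes on the higher side were Rab40c (0.58), Rps6kb2, a ribosomal protein S6 kinase (0.52), Pfdn5, a prefoldin subunit that helps fold actin and tubulin (0.46), Cops7b of the COP9 signalosome (0.65), Tor1a, an ATPase of the endoplasmic reticulum (0.46), Jmjd8 (1.005), Sap30l (0.59) and Sh2b1 (0.50). Rps6kb2 had a like difference after scramble LNA, 0.55, while Pfdn5 had one of -0.35 there. Adjusted p in limma was 0.767 or above for each of these 8 genes.

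On the lower side, Neat1, the long noncoding RNA that builds paraspeckles, was the most abundant of the genes named. It stood at 300.3, 300.0 and 292 scaled TPM with Aβ42 and at 517, 427 and 561 with the reverse peptide, a difference of -0.74 (SE 0.177, adjusted p = 0.81). The Aβ42 libraries lay close together and all below the reverse peptide libraries, and after scramble LNA the difference was -0.07. Mir3084-2 differed by -1.91 (SE 0.459) and Mir3058 by -1.40 (SE 0.343), both at low levels: Mir3058 was at 3.79, 4.19 and 5.58 against 12.6, 12.5 and 15.2 scaled TPM. The rest were Mto1, which modifies mitochondrial tRNA (-0.65), Ube3a, a ubiquitin ligase (-0.42), Rbm41 (-0.61), Snord65 (-0.86), Arih1, another ubiquitin ligase (-0.32), Chpt1 of phosphatidylcholine synthesis (-0.63), the chemokine Cxcl5 (-0.44), Clk1, a kinase of splicing factors (-0.45), and Gatad2b of the NuRD complex (-0.58). Chpt1 and Clk1 had like differences after scramble LNA, -0.75 and -0.38. None of these genes passed, with adjusted p in limma of 0.81 or above; with array weights Mir3058 passed (-1.45, adjusted p = 0.0287). The gene of smallest p over all was AC151270.1, a processed pseudogene on chromosome 17 (78458645 to 78458797), outside the naming rule for its low level and named after its values were seen. It was at 0.756, 0 and 0 scaled TPM with Aβ42 and 2.45, 4.16 and 4.65 with the reverse peptide, a difference of -1.95 (SE 0.298, adjusted p = 0.223 in limma).

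The replication-dependent histone genes, whose mRNAs are made in S phase and end in a stem-loop in place of a poly(A) tail, were the list with the most uniform difference. Their summed level was 6785, 5751 and 6469 scaled TPM with Aβ42 and 3888, 4543 and 4188 with the reverse peptide, so every Aβ42 library lay above every reverse peptide library. This holds relative to the median gene, which stood at -0.52 on TPM as deposited. On TPM as deposited, Hist1h2bn was at 83.2, 88.2 and 65.2 with Aβ42 and 61.6, 76.6 and 73.3 with the reverse peptide, with overlap. Hist1h3a and Hist2h3c2 overlapped there too. Of 63 members tested, 0 passed, 14 were higher and 0 lower at an unadjusted p below 0.05 (all genes: 2.34% higher, 2.25% lower), and the median difference was 0.57 against -0.00 over all genes. For 50 of the 63, the 3 Aβ42 libraries lay above the 3 reverse peptide libraries, against 8.69% of all genes. In the fit of the 6 anti-Hsf1 libraries alone, 53 of 63 were higher at an unadjusted p below 0.05, against 5.64% of all genes, and 0 passed adjustment (smallest adjusted p 0.108). The members share much of their coding sequence, so reads can be assigned to the wrong copy, and they are not independent of each other.

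The median was positive in all classes of histone. The median difference was 0.45 for 5 linker H1 genes, 0.59 for 18 H2A genes, 0.43 for 16 H2B genes, 0.65 for 11 H3 genes and 0.67 for 13 H4 genes. All 13 H4 genes had groups that did not overlap. Hist1h2bn was at 130, 103 and 98.6 scaled TPM with Aβ42 and at 53.9, 71.9 and 71.5 with the reverse peptide (difference 0.74, SE 0.251), Hist1h3a was at 72.3, 61.5 and 71.4 against 35.1, 43.9 and 41.9 (0.75, SE 0.265), and Hist2h3c2 was at 190, 158 and 168 against 98.2, 122 and 109 (0.65, SE 0.238). The exception was Hist1h2be at -1.41 (SE 1.0), where reverse peptide replicate 1 stood at 18.2 scaled TPM and the other 5 libraries between 0.789 and 2.37.

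After scramble LNA the median difference of the histone list was -0.40. There the sums were 3905, 5525, 6019 and 4306 scaled TPM with Aβ42 and 8889, 3275, 7747 and 7626 with the reverse peptide, which overlap and vary more than in the anti-Hsf1 groups. The median interaction was 0.98, and no member's interaction passed. Among other genes of the cell cycle the median was 0.07 for 20 DNA replication genes and 0.05 for 20 mitosis genes, all 40 with a 95% interval within ±1 log2 unit. Ccnb2, a mitotic cyclin, differed by 0.46 (SE 0.155), and E2f1, which drives entry into S phase, by 0.19 (SE 0.144).

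**Figure D4:**
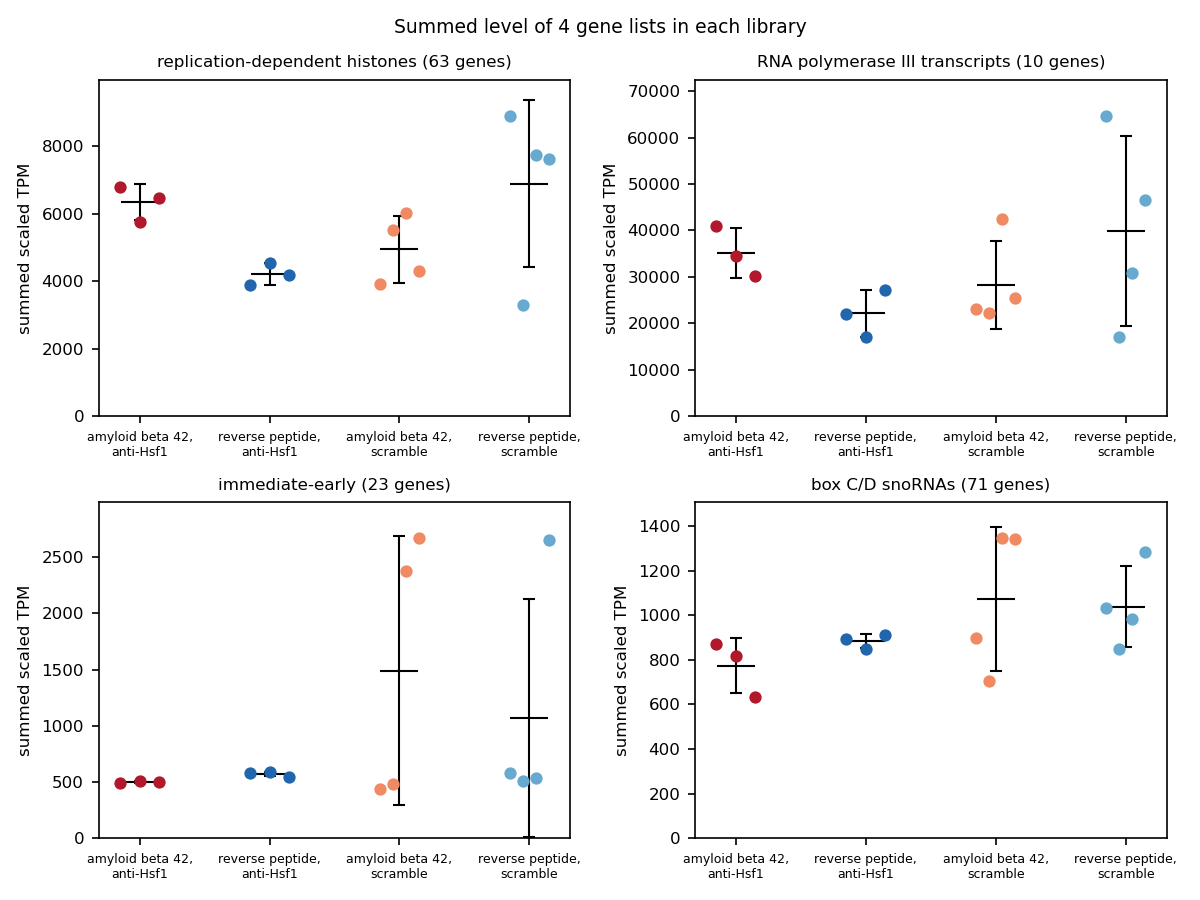
Summed scaled TPM of 4 gene lists in each HT-22 long-RNA library; points are libraries and bars the mean ± SD. Histone sums of the anti-Hsf1 groups are 5751 to 6785 with Aβ42 and 3888 to 4543 with the reverse peptide, and 3 scramble libraries stand at 2378 to 2667 for the immediate-early genes.

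Transcripts of RNA polymerase III, the polymerase that also makes B2 RNA, had the highest list median, 0.88 over 10 genes, and each of the 10 had a positive difference. Their sum was 40855, 34568 and 30070 scaled TPM with Aβ42 and 22064, 17086 and 27165 with the reverse peptide, without overlap. This too is relative to the median gene. As shares of deposited TPM, 7SL, 7SK, Rmrp and Rpph1 together were at 2.45%, 2.78% and 1.88% against 2.35%, 1.72% and 2.59%, with overlap. Rmrp, the RNA of RNase MRP, was at 3873, 3059 and 3125 against 1542, 1336 and 2025 scaled TPM, a difference of 1.05 (SE 0.324, adjusted p of 1 in limma). The 7SL RNAs Rn7s1 and Rn7s2, near-identical copies of the signal recognition particle RNA, differed by 0.71 (SE 0.46) and 0.68 (SE 0.46), both without overlap, and Rn7sk, which holds back the elongation factor P-TEFb, by 0.32 (SE 0.40) with overlap. Bc1, a neuronal noncoding RNA, was at 9.14, 11.4 and 3.58 against 0, 3.88 and 3.50, and Vaultrc5, the vault RNA, at 20.6, 32.7 and 5.82 against 8.19, 4.55 and 4.22. In all, 3 were higher and 0 lower at an unadjusted p below 0.05, 5 of the 10 lay higher without overlap, and 0 passed; over all genes, 2.34% were higher and 2.25% lower at that p and 8.69% lay higher without overlap. After scramble LNA the list median was -0.62, with sums of 22306 to 42371 with Aβ42 and 17106 to 64634 with the reverse peptide.

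Box C/D snoRNAs, which guide 2'-O-methylation of ribosomal RNA, had the lowest list median, -0.32 over 71 genes. Of these, 0 passed, 7 were lower and 0 higher at an unadjusted p below 0.05, and 12 of the 71 had all Aβ42 libraries below all reverse peptide libraries. Over all genes tested these shares were 2.25% lower and 2.34% higher at that p, and 9.63% below without overlap. Snord57 was at 0.427, 0.554 and 7.08 scaled TPM with Aβ42 and at 25.1, 15.3 and 15.1 with the reverse peptide (difference -2.86, SE 1.04). Snord73a was at 9.26, 3.63 and 7.499 against 13.0, 25.6 and 10.9 (-1.15, SE 0.40), and Snord68 at 0.85, 0.832 and 17.1 against 13.1, 16.1 and 14.8 (-1.98, SE 0.688). Snord68 overlaps through Aβ42 replicate 3. Without that library it passed, at -3.11 (adjusted p = 0.0256 in limma), and the list median was -0.13. Leaving out the library that overlaps favours a pass, so no conclusion is drawn from it. Box H/ACA snoRNAs and scaRNAs, which guide pseudouridylation, had a median of 0.05 over 46 genes, and the genes that host snoRNAs in their introns one of -0.11 over 14.

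Ribosomal protein and respiratory chain mRNAs, which encode the cytosolic ribosome and mitochondrial complexes, had small positive medians. Of 85 cytosolic ribosomal protein genes the median was 0.16, with 4 higher and 0 lower at an unadjusted p below 0.05 (all genes: 2.34% and 2.25%) and 19 of 85 without overlap on the higher side, against 8.69% of all genes. Rpl26 was at 710, 609 and 610 scaled TPM with Aβ42 and at 431, 400 and 507 with the reverse peptide (0.53, SE 0.17). Of 77 nuclear respiratory chain genes the median was 0.13, with 6 higher and 1 lower at that p, beside the same shares of all genes; Ndufb4 was among the higher, at 10.5, 6.23 and 7.63 against 4.16, 4.29 and 4.09 (0.79, SE 0.286). After scramble LNA the medians were -0.23 and -0.19. The 13 mRNAs of the mitochondrial genome had a median of -0.08, all with overlap; under scramble it was -0.92.

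Chaperones, among them those that Hsf1 is known to induce, had differences near 0. Of 24 heat shock chaperones 0 passed and 0 had an unadjusted p below 0.05, the median was 0.03, and 22 had a 95% interval within ±1 log2 unit. Of these chaperones 4 lay higher and 0 lower without overlap (all genes: 8.69% and 9.63%). With the 6 anti-Hsf1 libraries alone, 2 chaperones were higher and 1 lower at an unadjusted p below 0.05 (all genes: 5.64% and 5.41%). Their sum was 4068, 3980 and 3762 scaled TPM with Aβ42 and 3817, 3863 and 3814 with the reverse peptide. Hspa1a, an inducible Hsp70, was at 10.3, 10.0 and 11.7 against 10.6, 7.13 and 7.13 (0.35, SE 0.35), and Hspa1b at 28.4, 26.3 and 32.6 against 26.4, 21.6 and 22.7 (0.29, SE 0.26). The cochaperones Dnaja1 (-0.39, SE 0.254), Ahsa1 (0.18, SE 0.119) and Stip1 (0.14, SE 0.106) had the smallest p in the list. The unfolded protein response of the endoplasmic reticulum had a median of 0.03 over 18 genes, with Hyou1 at 0.23 and Edem1 at 0.15, and the Nrf2 list one of 0.05 over 19, with Prdx1 at -0.28.

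Immediate-early genes, which respond to stimuli within minutes to hours, leaned to the lower side. Of 23, 0 passed and 0 had an unadjusted p below 0.05, and the median was -0.25. The sum was 495, 511 and 502 scaled TPM with Aβ42 and 578, 588 and 549 with the reverse peptide, without overlap, and 9 members lay lower and 2 higher without overlap (all genes: 9.63% and 8.69%). Egr1 was at 30.5, 32.6 and 28.0 against 39.0, 41.7 and 37.99 (-0.37), Klf6 at 70.2, 81.1 and 72.9 against 93.7, 105 and 95.3 (-0.39), and Nr4a2 at 2.92, 2.49 and 2.71 against 4.57, 5.91 and 6.97 (-0.86). Jund went the other way, at 78.2, 80.3 and 79.1 against 72.2, 60.2 and 58.4 (0.32). Their SE is large, 0.84 at the median, because it is shared with the scramble groups that hold the 3 libraries high in these genes; with the 6 anti-Hsf1 libraries alone, 7 of 21 were lower and 1 higher at an unadjusted p below 0.05 (all genes: 5.41% and 5.64%), with no adjusted p under 0.284.

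Targets of NF-kB and cytokines included a few secreted and survival factors on the lower side. Of 14 tested 0 passed, 2 were lower and 0 higher at an unadjusted p below 0.05 (all genes: 2.25% and 2.34%), and the median was -0.09. The chemokine Cxcl1 was at 26.7, 27.9 and 28.3 scaled TPM with Aβ42 and at 41.7, 41.0 and 46.2 with the reverse peptide (-0.62, SE 0.22). Birc3, an inhibitor of apoptosis, was at 7.13, 8.20 and 10.4 against 19.4, 11.4 and 14.04 (-0.72, SE 0.252), and the adhesion molecule Vcam1 at 39.7, 44.7 and 45.9 against 52.2, 66.6 and 56.1 (-0.41, SE 0.22). Nfkbia, the inhibitor that NF-kB induces, was at 54.8, 52.7 and 58.0 against 50.5, 50.7 and 52.5 (0.10), and Nfkb1 had overlapping groups (-0.07). Dusp1, a phosphatase that ends MAP kinase signalling, was at 65.7, 70.7 and 78.0 against 87.0, 99.0 and 99.5 (-0.41, SE 0.20).

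Lysosome and autophagy genes had a median of 0.15 over 25, with 10 higher and 0 lower without overlap (all genes: 8.69% and 9.63%) and 23 with a 95% interval within ±1 log2 unit. Tfeb, the factor that drives lysosomal genes, was at 12.35, 11.02 and 15.3 scaled TPM with Aβ42 and 7.41, 7.46 and 9.04 with the reverse peptide (0.62, SE 0.294), and Gaa, the lysosomal alpha-glucosidase, at 90.4, 97.6 and 113 against 89.9, 77.7 and 79.7 (0.28, SE 0.127). The protease Ctsb differed by 0.16 (SE 0.0831). None passed. The proteasome had a median of 0.08 over 31 genes, all with an interval within ±1 log2 unit, and Psmd3 differed by 0.40 (SE 0.194).

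The App list held App, Aplp1, Aplp2, the secretases that cut App, and also Ide, Ece1, Sorl1 and Lrp1. Groups overlapped in all but 1 of its 14 genes tested, with a median of 0.02. App was at 90.8, 96.3 and 137 scaled TPM with Aβ42 and 94.0, 87.0 and 79.9 with the reverse peptide (0.29, SE 0.205, 95% interval -0.15 to 0.73). The gamma-secretase subunits Aph1a (0.30, SE 0.179) and Psenen (0.41, SE 0.323) and the beta-secretase Bace1 (-0.03, SE 0.18) did not pass. Cholesterol synthesis genes all had intervals within ±1 log2 unit, with a median of 0.09 over 22; Dhcr7, its last enzyme, was at 29.8, 31.8 and 28.9 against 23.5, 22.6 and 20.3 (0.43, SE 0.154), a difference also seen after scramble LNA (0.46).

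Further lists had medians between -0.13 and 0.13 and no member that passed. The p53 targets had a median of 0.04 over 16, with Bbc3, a killer of the Bcl-2 family, at 0.41 (SE 0.188). The Atf4 list had one of 0.11 over 18, interferon-stimulated genes 0.13 over 16 with Isg15 at 0.46 (SE 0.249), glycolysis 0.09 over 16 identifiers, hypoxia genes 0.08 over 14, collagens and matrix 0.03 over 19 with Col6a2 at 0.26 (SE 0.0992), actin and Srf/Yap targets -0.02 over 17, apoptosis -0.08 over 15 with Xiap at -0.30 (SE 0.156), Polycomb PRC2 -0.10 over 11 with Jarid2 at -0.58 (SE 0.333), and MAP kinase feedback -0.13 over 15. Since RNA was measured in whole cultures, a difference in the number of cells in a state and one in RNA per cell cannot be told apart.

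**Figure D5:**
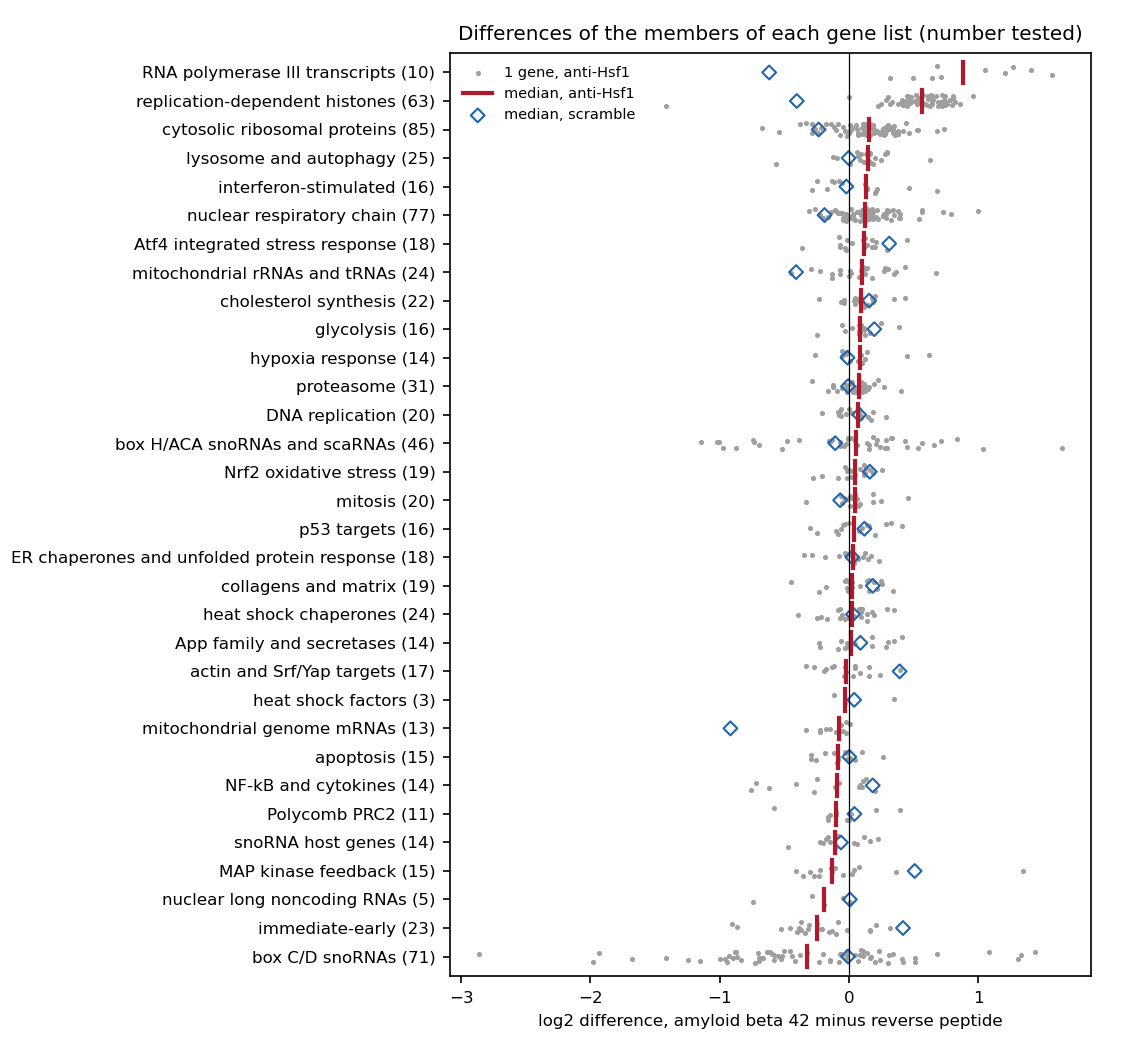
Log2 difference (Aβ42 minus reverse peptide) of each gene of 32 lists in the anti-Hsf1 libraries (grey points), with the list median (red bar) and the median after scramble LNA (blue diamond). RNA polymerase III transcripts and histones have red medians of 0.88 and 0.57 with blue medians of -0.62 and -0.40, and most other lists lie close to 0.

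The interaction asks whether the peptide difference depended on the LNA. On scaled TPM, limma called 0 of 17291 genes (0% called), with a smallest adjusted p of 0.358 and 899 genes (5.2%) at an unadjusted p below 0.05. The named genes of smallest p were Mir6236, Pfdn5 (interaction 0.80), Pfdn2, another prefoldin subunit (1.57), Mto1 (-0.94), Cox8a, a subunit of cytochrome c oxidase (0.87), Hist1h2bn (1.42), D8Ertd738e (0.80) and Parp11 (1.41). Pfdn2 was at 36.3, 34.1 and 22.5 scaled TPM with Aβ42 and 13.9, 18.7 and 19.1 with the reverse peptide under anti-Hsf1, a difference of 0.79, and after scramble LNA one of -0.78. Each of the 8 had opposite signs under the 2 LNAs, which picking by smallest interaction p favours. None of the 8 passed (adjusted p of 0.423 to 0.687) in the limma fit of all 14 libraries. Gm24187, Gm24270 and Gm25911 had smaller interaction p than Mir6236 and are outside this rule by their symbols. Their interactions passed in limma under some alternatives: without the 3 scramble libraries that stood apart, without reverse peptide scramble replicate 4 alone (adjusted p of 0.00978 for Gm24187 and Gm25911 and 0.0421 for Gm24270), and with array weights, where Pfdn2 (0.0288), Parp11 (0.0417) and AC151270.1 (0.0438) passed too.

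B2 RNA was read in the short-RNA libraries of the same treatments, as the share of a library's B2 counts that lie above position 20 of the element. It was 69.6% (95% Wilson interval 67.5% to 71.6%), 69.8% (67.7% to 71.9%) and 72.3% (70.3% to 74.2%) with Aβ42, from 1835 to 2075 counts per library. With the reverse peptide it was 63.9% (61.8% to 65.9%), 70.6% (68.6% to 72.4%) and 71.4% (69.7% to 73.0%), from 2150 to 2799 counts. The groups overlapped: the means were 70.6% ± 1.49 and 68.6% ± 4.12 (SD, n = 3 each), and the difference of 1.96 percentage points gave p = 0.70 in the two-sided exact permutation test. It rests on reverse peptide replicate 1, since without that library it was -0.40 percentage points. Reverse peptide replicate 3 is titled short RNA and described as long RNA, and was used by its title. After scramble LNA the share was 76.5% ± 1.48 with Aβ42 and 73.0% ± 2.64 with the reverse peptide (SD, n = 4 each). The intervals cover counting error only.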

How the data were processed

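Libraries were made from fragmented, rRNA-depleted long RNA, per the labels' protocols. The submitters' processing notes name cutadapt 1.18, BWA 0.7.17, HISAT2 2.1.0, bedtools 2.26.0 and StringTie 1.3.4d and the build mm10/GRCm38, without saying which made which file. Per the file headers, the authors deposited TPM, FPKM and coverage signal per gene for each long-RNA library, and a count per B2 position for each short-RNA library. TPM sums to a fixed total, so 1 abundant RNA lowers all others.

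TPM was summed per gene identifier, filtered at a mean of at least 1 over 14 libraries and scaled by median of ratios. Of 53975 identifiers, 53934 are in GENCODE M21. log2(scaled TPM + 1) was fitted with limma 3.58.1 (R 4.3.3; trend and robust moderation; 4 groups), tested on simulated data first. Shares were tested by exact permutation (scipy 1.17.1, Python 3.11.15). FPKM and coverage, as deposited, served for relative depth only. Genes were named by rule: per direction, 12 with the smallest p among those with groups that do not overlap and a mean TPM of at least 5 (no Gm or Rik symbols), 8 for the interaction, up to 3 per list, and Hsf1, Hsf2, App and Gm23935. Other names were chosen after seeing values. The members and lists were chosen with earlier results of these data known. The mouse libraries were not used here. Alternatives are given at the end.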

Additional observations from a re-analysis of the deposited data

Results flagged for a closer look

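In the scramble groups of 4, the library farthest from the others was compared with the group's range (gap divided by range, which chance puts past the limit in about 1 group in 20); 14 of 76 group values passed. 13 of the 14 were in the reverse peptide group. The rule can flag only 1 library that stands apart from the rest of its group. Aβ42 replicates 3 and 4 were both high in immediate-early genes (2378 and 2667 against 438 and 480) and so could not be flagged for them. Reverse peptide replicate 4 stood above the other 3 in the summed scaled TPM of immediate-early genes (2651, ratio 0.968), MAP kinase feedback (0.972), actin and Srf/Yap targets (11711 against 2949 to 3194, 0.972), NF-kB and cytokines (0.955), p53 targets (0.951), the Atf4 list (0.942), DNA replication (0.926), apoptosis (0.925), collagens and matrix (0.85), the proteasome (0.849) and heat shock chaperones (0.833), and below them in interferon-stimulated genes (206.7 against 268.8 to 272.4, 0.944). In the same group, replicate 1 stood above the others in box H/ACA snoRNAs and scaRNAs (1387 against 779.0 to 855.5, 0.874). In the Aβ42 group, replicate 3 stood above the others in RNA polymerase III transcripts (42371 against 22306 to 25338, 0.849). These libraries enter the anti-Hsf1 comparison through the shared spread, the filter on mean TPM and the scaling, and its counts without them are given below.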

How the results depend on the processing

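The count of genes called in the anti-Hsf1 comparison was 0, and stayed 0 with scaling to the protein-coding sum, quantile normalisation, a pseudocount of 0.1, a mean TPM of at least 5, no trend or robust moderation, and the 6 anti-Hsf1 libraries alone. It was 4197 on TPM as deposited, 2 with no filter on low TPM, 13 with array weights (9 higher, 4 lower; Mir6236, Gm24187, Gm25911, Gm24270, CT010467.1, Vkorc1l1, Mt2 and Apba3 among the higher, Mir3058 and AC151270.1 among the lower), 4 without the 3 scramble libraries high in immediate-early genes (chosen after seeing the data), and 0 to 2 with each library left out: 2 without Aβ42 anti-Hsf1 replicate 3 (CT010467.1 higher, Snord68 lower) and 1 without reverse peptide scramble replicate 2 (Mir6236). The interaction count, also 0, was 4379 on TPM as deposited, 11 with array weights, 4 without those 3 scramble libraries, and 0 to 3 with each library left out (1 without Aβ42 anti-Hsf1 replicate 3, 3 without reverse peptide scramble replicate 4). Members of lists called numbered 165 on TPM as deposited and 0 to 1 with each library left out.

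With the replicate number as a replicate block, 0 genes were called in the comparison and 0 in the interaction; in the 6 anti-Hsf1 libraries alone with replicate block, 1 gene was called (Rnu3a, higher). Same-numbered libraries had correlations of deviations of -0.06, 0.00 and -0.10, and the samples share only a number. With the replicate block, the Hsf1 difference was -0.03.

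The Hsf1 difference ran from -0.108 to 0.0326 with each library left out, and was 0.0289 without Aβ42 replicate 1 and 0.0326 without reverse peptide replicate 1. The protein-coding share differed by -7.35 percentage points without Gm23935 in the total and by -19.5 to -13.5 with each library left out. The B2 share difference ran from -0.40 to 3.35 percentage points with each library left out. Under quantile normalisation Gm23935 was at 0.00, Gm42418 at -0.33, Gm26917 at -0.36, mt-Rnr2 at -0.28 and Ftl1 at -0.0415, against positive values otherwise. The 0.00 of Gm23935 was fixed by the method, since it was the most abundant gene of each anti-Hsf1 library. With each library left out, mt-Co3 ran from -0.302 to 0.0193, mt-Nd3 from -0.638 to 0.18 and mt-Co1 from -0.161 to 0.00675, each positive without Aβ42 replicate 3. The causes were not tested. Single-gene values on TPM as deposited are relative to the median gene, which stood at -0.52.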
